A study of Mus musculus with 6 samples.

Results

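The genes described here encode the steps of glycolysis, the entry of pyruvate into mitochondria and the pentose phosphate pathway. The list held 34 genes, chosen by name, and a gene was represented by its brightest probe set with a single annotated symbol. Of these, 31 were found among 18194 genes with such a probe set, and 30 were tested among 18193. Gapdh was found on control probe sets alone and is described from them without a test, and Gpi1, Eno1 and G6pdx were not analysed here.

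Transcript levels came from 6 arrays of mouse bone marrow stem cells sorted as GFP+, lineage-negative (Lin-), c-Kit+ and Sca-1+. The first group was transduced with BCR/ABL and came from mice with chronic myeloid leukaemia (CML) treated with imatinib, the second carried BCR/ABL and came from untreated CML mice, and the third carried the empty GFP vector, with 2 arrays in each. BCR/ABL is a fused tyrosine kinase that drives CML, imatinib inhibits it, and the series asked which genes BCR/ABL regulates in blood stem cells. All 3 groups were transduced cells that passed the same gate. The sources used here leave out the mouse strain, the animals' age, how much imatinib was given and for how long, and whether the vector cells' hosts were treated. They also do not tell whether replicates were separate animals or pools, so each p-value rests on a spread between samples that may be technical.

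Glycolysis breaks glucose down to pyruvate, with a preparatory phase that spends ATP and a pay-off phase that returns more than was spent. Pyruvate is then reduced to lactate and exported, or oxidised in mitochondria by the pyruvate dehydrogenase complex, which pyruvate dehydrogenase kinases switch off. The pentose phosphate pathway branches off at glucose 6-phosphate and supplies NADPH and ribose. Resting blood stem cells are known for relying on glycolysis, and their pyruvate dehydrogenase kinases hold pyruvate back from the mitochondria.

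Values are MAS5 signals, a linear brightness for each probe set, which the authors' software had scaled to a trimmed mean of 500 on every array. Between 36.1% and 41.5% of the probe sets of an array lay below 16. The members were mostly bright: 19 of 30 exceeded 1000 on all 6 arrays, 8 stayed below 1000 on all of them, and 1, Eno2, went below 16. Log2 changes were computed on log2(signal + 16) after quantile normalization, which understates the changes of dim genes. Replicates correlated at 0.985 in BCR/ABL imatinib, 0.989 in BCR/ABL and 0.969 in vector. The cells of the groups also differed in markers of other lineages. The summed signal of 9 measured mast cell and basophil markers was 58707 and 48995 on the BCR/ABL imatinib arrays, 35545 and 35791 on the BCR/ABL arrays, and 11694 and 6602 on the vector arrays. For 11 B cell markers the sums were 709 and 1821, 1344 and 2493, and 25331 and 5075 in the same groups, and Pax5 was below 16 everywhere. Vector replicate 1 stood apart in the summed signal of 7 monocyte and macrophage markers as well, at 13486 where the other 5 arrays had 5427 to 7388. Not each of these markers did so: Ly86 was 2838 there and at most 1539 elsewhere, but Csf1r was 1796 there and 1792 on BCR/ABL replicate 2. For 7 T and NK cell markers vector replicate 1 had a sum of 1068 where the others had 55 to 134. Vector replicate 2 stood apart in the summed signal of 11 granulocyte markers, at 51067 where the other 5 arrays had 78625 to 90568. Ltf, Ngp, Camp, Lcn2, S100a8, S100a9 and Mmp8 had their lowest signal on it. Elane and Ctsg did not, and Mpo and Prtn3 had their highest signal there, 11353 and 7611. Of these 11, 7 were higher without overlap in BCR/ABL than in vector, where 23.9% of all genes were. Sums of 14 proliferation genes were 46685 to 55600 with imatinib, 56037 to 62570 in BCR/ABL and 62930 to 65113 in vector. The part of these differences in the results below was not tested. In such bulk samples, fewer cells of a type and less RNA per cell cannot be told apart. Of the stem cell markers, 8 of 10 were measured, Ly6a (Sca-1) not among them, with sums of 15164 and 19949 with imatinib, 12337 and 10422 in BCR/ABL, and 10324 and 16252 in vector. Kit, the receptor used in the sort, had signals of 2659 and 2602 in BCR/ABL imatinib cells, 1332 and 1116 in BCR/ABL cells, and 1637 and 2125 in vector cells.

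The first comparison set BCR/ABL cells against vector cells. Of 30 members, 25 had a positive log2 change and 5 a negative one, where 52.4% and 47.6% of all genes did, with a median of 0.22 against 0.01 over all genes. Without vector replicate 1 the members' median was 0.11. The arrays of the 2 groups did not overlap for 15 members that were higher, where 23.9% of all genes did so, and for 1 that was lower, Ldhb, where 20.1% did. Among genes above the 50th percentile of signal, as 29 of the 30 members are, these shares were 26.3% and 22.7%. The 15 included both glucose transporters, 5 genes of the preparatory phase, and the lactate genes Ldha and Slc16a3. None of the 30 passed limma at an adjusted p under 0.05, a threshold that 0.0613% of probe sets and 0.104% of genes passed. At an unadjusted p under 0.05 there were 10 members higher, where 7.16% of all genes and 7.66% of the brighter genes were, and 0 lower, where 5.55% and 6.99% were. The smallest adjusted p was 0.0956, for Slc2a3.

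The second comparison set imatinib-treated against untreated BCR/ABL cells. Here 21 of 30 members had a negative log2 change and 9 a positive one, where 51% and 49% of genes did, with a median of -0.12 against -0.01 over all genes. The groups did not overlap for 14 members that were lower with imatinib, where 26.7% of all genes and 31.6% of the brighter genes did so, and for 4 that were higher, where 24.8% and 30.1% did. The 4 were Slc2a3, Pfkfb4, Eno2 and Pdk2. None passed limma after adjustment, and neither did any other probe set (0%). At an unadjusted p under 0.05 there were 9 lower and 2 higher, where 9.13% and 7.88% of all genes, and 13.1% and 11.5% of the brighter genes, were. The smallest adjusted p was 0.123, for Eno2. With each array centred on its median in place of quantile normalization, 25 members had a negative and 5 a positive change, and the median over all probe sets was itself -0.27.

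The third comparison set imatinib-treated BCR/ABL cells against vector cells. As many members had a positive as a negative change, 15 each, where 49.8% and 50.2% of genes did, with a median of 0.02 against -0.001 over all genes, or 0.13 without vector replicate 2. The groups did not overlap for 9 members higher and 6 lower, where 21.9% and 22.3% of all genes, and 24.4% and 25.5% of the brighter genes, did so. With array medians 11 changes were positive and 19 negative. None of the 30 passed limma, as 0.0446% of probe sets and 0.0824% of genes did, and Slc2a3 had the smallest adjusted p at 0.0805. At an unadjusted p under 0.05 there were 5 higher and 3 lower, where 9% and 7.7% of all genes, and 11.2% and 10.5% of the brighter genes, were. The 3 comparisons share arrays pairwise, so their values stand side by side and are not independent of each other.

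**Figure D1:**
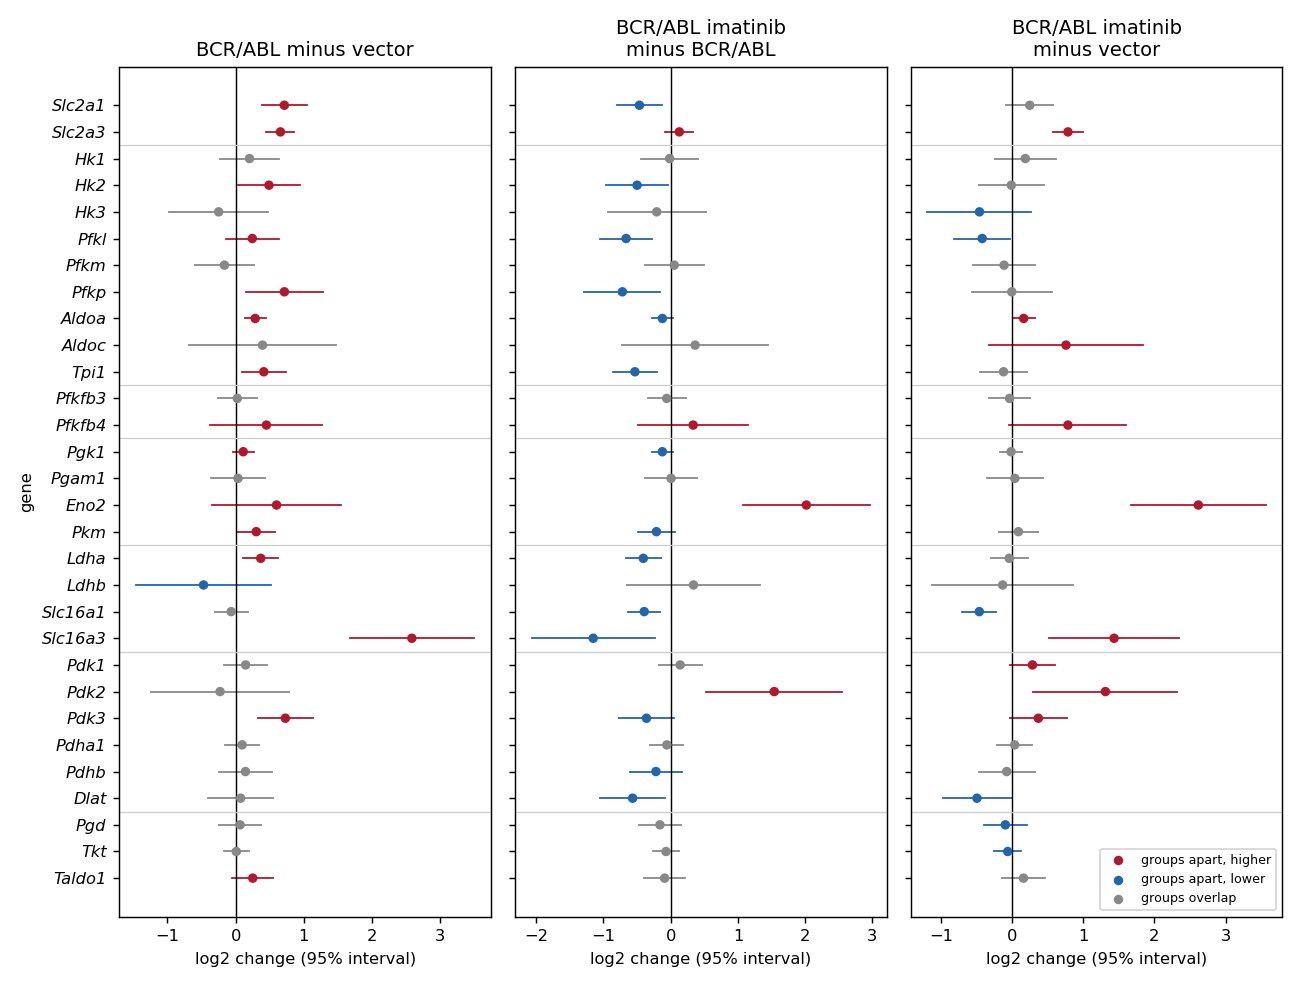
Log2 change of each of 30 members (rows, by role) in the 3 comparisons, with points for the estimate and bars for limma's 95% interval, unadjusted; red and blue mark members whose 2 groups of arrays did not overlap. Most points lie right of 0 for BCR/ABL minus vector (25 of 30) and left of 0 for imatinib minus BCR/ABL (21 of 30).

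Across the 6 arrays, both BCR/ABL arrays were the highest for 11 of 30 members, or 36.7%, where 12.4% of all genes and 15.1% of genes above the 50th percentile of signal had that order. The 11 were Slc2a1, Hk2, Pfkl, Pfkp, Aldoa, Tpi1, Pgk1, Pkm, Ldha, Slc16a3 and Pdk3. They include genes of glucose uptake, glycolysis and lactate export, and 1 inhibitor of pyruvate oxidation. Other glycolytic genes, Hk1, Hk3, Pfkm, Aldoc and Pgam1 among them, did not have this order. Pdk2 had its lowest deposited signals on both BCR/ABL arrays, 59.6 and 54.3. After quantile normalization no member was lowest on both, as 9.83% of all genes and 12.6% of the brighter genes were. Both vector arrays were the lowest for 6 members, 20% of them, where 9.89% and 9.88% of those gene sets were, and the highest for 0, where 8.12% and 8.16% were. Both imatinib arrays were the highest for 4 members, where 12.1% and 15.9% of those gene sets were, and the lowest for 3, where 13.3% and 17.8% were. These orders were counted after the data had been seen, and no test was made of them. With array medians in place of quantile normalization the first count was 19 of 30, and the share of all genes was then 30%. With the deposited scaling alone it was 10 of 30, against 10.3% of genes, and without BCR/ABL replicate 1 it was 18 of 30, against 21.4%.

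**Figure D2:**
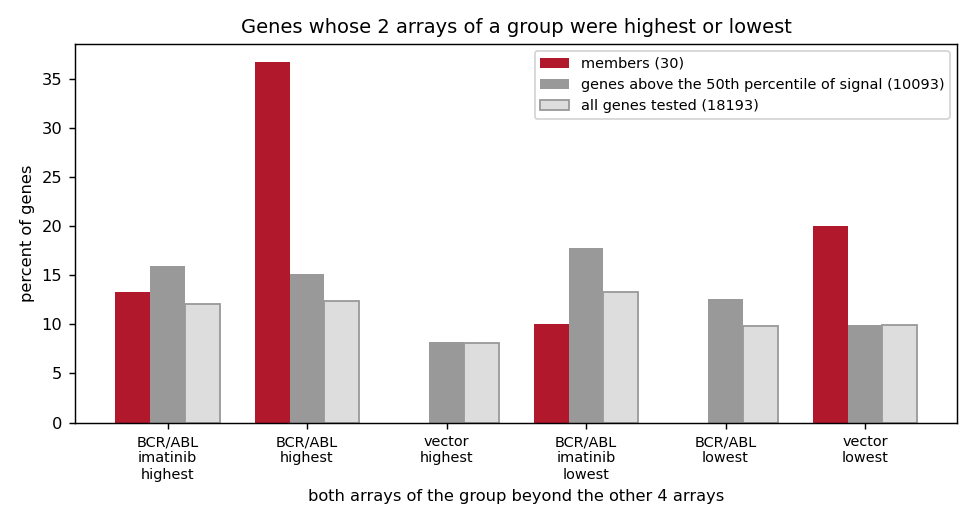
Percent of genes (vertical axis) for which both arrays of the named group lay above, or below, the other 4 arrays, for 30 members, for 10093 genes above the 50th percentile of signal and for all 18193 genes tested. The tallest bar is that of members highest on both BCR/ABL arrays, at 36.7%, where the bars of the other gene sets stand at 15.1% and 12.4%.

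**Figure D3:**
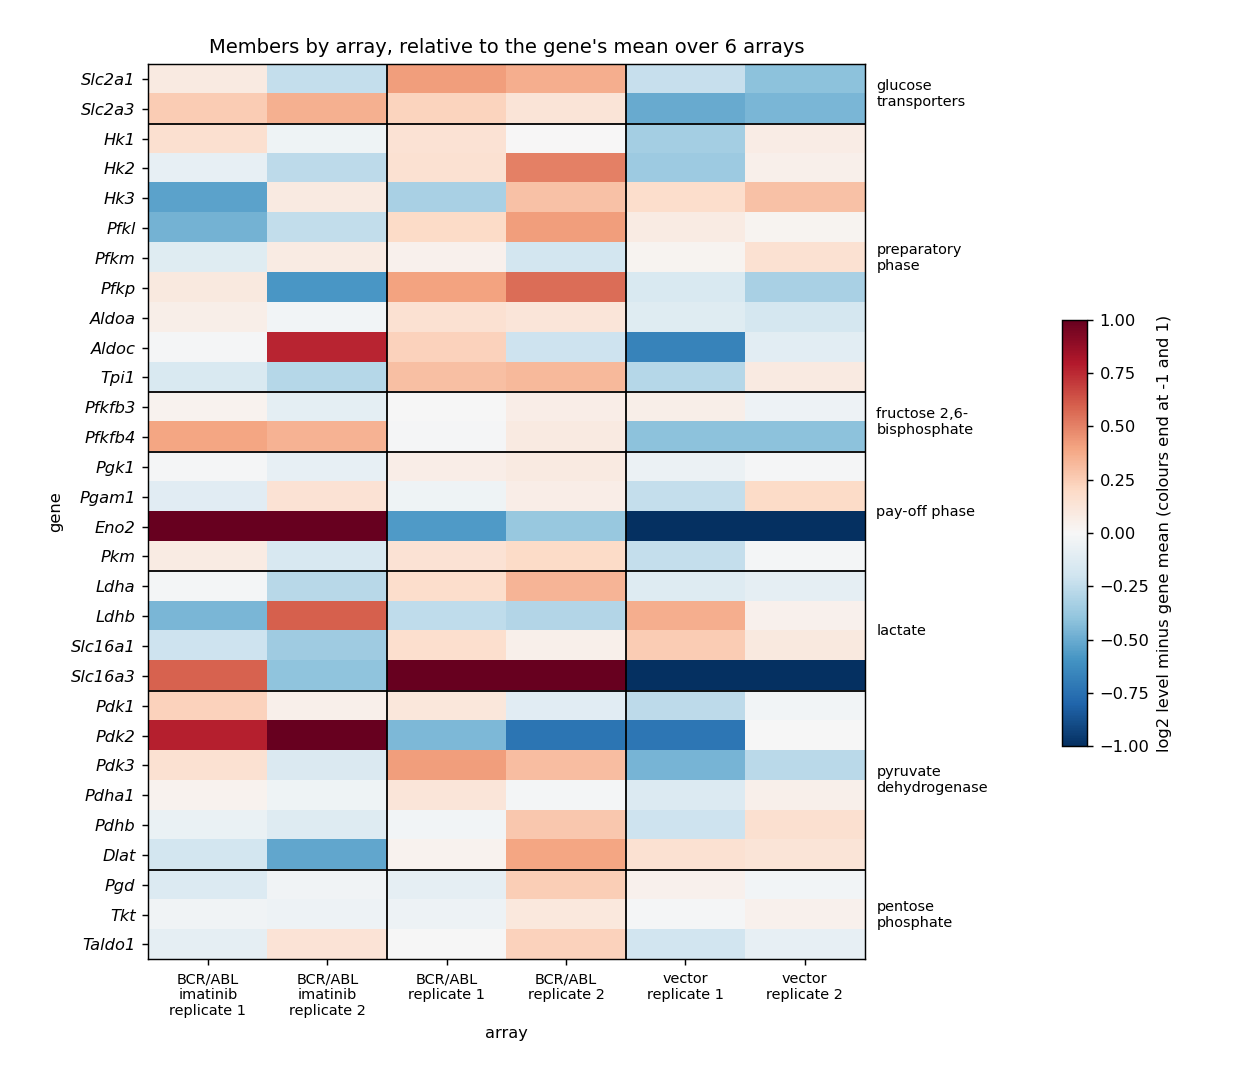
Log2 level of each of 30 members (rows, by role) on each of 6 arrays (columns), minus the gene's mean over the 6; the colour scale ends at -1 and 1. The 2 BCR/ABL columns are red for most genes of glucose uptake, the preparatory phase and lactate, Slc16a3 is blue on both vector arrays, and Eno2 and Pdk2 are red on both imatinib arrays.

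Both glucose transporters had higher signals in BCR/ABL cells than in vector cells, and they differed in their imatinib values. Slc2a1 encodes GLUT1, the widely expressed glucose carrier. Its signals were 3414 and 2670 in BCR/ABL imatinib cells, 4338 and 4211 in BCR/ABL cells, and 2727 and 2442 in vector cells. Both BCR/ABL arrays lay above the other 4, while the imatinib and vector arrays overlapped. The log2 change was 0.71 in BCR/ABL against vector (SE 0.13, adjusted p = 0.195) and -0.47 with imatinib against untreated BCR/ABL (adjusted p = 0.208), and all 3 probe sets of the gene had these signs. The imatinib value was -0.30 without BCR/ABL imatinib replicate 2. Slc2a3 encodes GLUT3, a carrier with high affinity for glucose. It had signals of 4666 and 4905 with imatinib, 4635 and 4402 in BCR/ABL, and 2772 and 2896 in vector. All 4 arrays of BCR/ABL-carrying cells lay above both vector arrays, with or without imatinib. Its log2 change was 0.66 in BCR/ABL against vector (SE 0.08, adjusted p = 0.0956) and 0.79 in BCR/ABL imatinib against vector (SE 0.08, adjusted p = 0.0805). Between BCR/ABL imatinib and BCR/ABL it was 0.13 (SE 0.08), with a 95% interval from -0.08 to 0.33. It was 0.08 without BCR/ABL imatinib replicate 2 or BCR/ABL replicate 2, and -0.25 with array medians or -0.049 with the gene's 4 probe sets averaged. In BCR/ABL against vector 3 of those 4 probe sets had the same sign. The differences of Slc2a3 from vector passed in some alternatives: among probe sets above the 50th percentile of signal the adjusted p was 0.0282 in BCR/ABL and 0.0159 in BCR/ABL imatinib. Over all alternatives it ranged from 0.0282 to 0.665 and from 0.0159 to 0.387.

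Hexokinases, which trap glucose in the cell by phosphorylation, differed in their order over the arrays. Hk2, the inducible isoform, had signals of 2551 and 2227 with imatinib, 3067 and 3887 in BCR/ABL, and 2059 and 2810 in vector. Its log2 change was 0.49 in BCR/ABL against vector (SE 0.19, adjusted p = 0.414) and -0.50 with imatinib against BCR/ABL (adjusted p = 0.301). The first was 0.31 without BCR/ABL replicate 2 and 0.28 without vector replicate 1, and the second was -0.32 without BCR/ABL replicate 2. Hk1, the housekeeping isoform, overlapped in all 3 comparisons, with signals between 1187 and 1727 over the 6 arrays. Hk3, the isoform of myeloid cells, ranged from 481 to 863 and did not follow Hk2. Its imatinib arrays, at 481 and 767, lay below the vector arrays, at 784 and 841, and its BCR/ABL arrays, at 545 and 863, overlapped with both.

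The 3 subunits of phosphofructokinase, the main control point of glycolysis, also differed. Pfkp, the platelet-type subunit, had signals of 1908 and 1178 with imatinib, 2391 and 2628 in BCR/ABL, and 1577 and 1402 in vector. The BCR/ABL arrays were the highest, and the 2 imatinib arrays lay on either side of both vector arrays. Its log2 change was 0.72 in BCR/ABL against vector (SE 0.23, adjusted p = 0.356) and -0.72 with imatinib against BCR/ABL (SE 0.23, adjusted p = 0.242), with all 3 probe sets of the same sign. The imatinib value was -1.06 without BCR/ABL imatinib replicate 1 and -0.38 without replicate 2. Pfkl, the liver-type subunit, had signals of 697 and 831 with imatinib, 1119 and 1309 in BCR/ABL, and 1011 and 974 in vector. The imatinib arrays were the lowest of all, and the log2 change was -0.66 against BCR/ABL (SE 0.16, adjusted p = 0.161) and -0.42 against vector (adjusted p = 0.338). Of its 3 probe sets, 2 had the first sign and all 3 the second. Pfkm, the muscle-type subunit, ranged from 592 to 747 and overlapped in every comparison.

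Pfkfb3 and Pfkfb4 make and break down fructose 2,6-bisphosphate, an activator of phosphofructokinase. Pfkfb3 was nearly flat, with signals between 1528 and 1748. Pfkfb4 was dim, at 145 and 157 with imatinib, 84.9 and 104 in BCR/ABL, and 82.6 and 71.2 in vector. Its 3 groups did not overlap, and its log2 change was 0.78 in BCR/ABL imatinib against vector (SE 0.34, adjusted p = 0.382).

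Further down the preparatory phase, Tpi1 interconverts the triose phosphates and Aldoa splits fructose 1,6-bisphosphate. Tpi1 had signals of 4665 and 4206 with imatinib, 6465 and 6666 in BCR/ABL, and 4294 and 5728 in vector. The log2 change was -0.53 with imatinib against BCR/ABL (SE 0.13, adjusted p = 0.169) and 0.41 in BCR/ABL against vector (SE 0.13, adjusted p = 0.358), and the second was 0.22 without vector replicate 1. Aldoa stood at 8390 and 8100 with imatinib, 8968 and 9196 in BCR/ABL, and 7947 and 7560 in vector, so the groups were apart by small steps; with array medians, imatinib against vector turned to -0.028. Its log2 change in BCR/ABL against vector was 0.29 (SE 0.06, adjusted p = 0.257). Aldoc, the brain-type aldolase, was dim, from 82.3 to 252, and its imatinib arrays lay above both vector arrays with a log2 change of 0.76 (SE 0.44, adjusted p = 0.515), or 1.15 and 0.37 without BCR/ABL imatinib replicate 1 and 2 and 0.48 without vector replicate 1.

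The measured pay-off phase genes were bright, apart from 1 dim enolase. Gapdh, which oxidises glyceraldehyde 3-phosphate, was read by 3 control probe sets along its transcript. The probe set near the 3-prime end had signals of 9796 and 9678 with imatinib, 10012 and 10494 in BCR/ABL, and 10333 and 10492 in vector, a spread of 1.08-fold over the 6 arrays. The spread was 1.24-fold on the 5-prime and 1.14-fold on the middle probe set. On the middle one both BCR/ABL arrays were the highest, with 8278 and 8186 with imatinib, 9109 and 9331 in BCR/ABL, and 8446 and 8945 in vector. The ratio of its 3-prime to its 5-prime signal was 1.45 and 1.39 with imatinib, 1.34 and 1.28 in BCR/ABL, and 1.56 and 1.37 in vector. For Actb the imatinib arrays had a ratio of 1.74 and 1.55, the BCR/ABL arrays 1.48 and 1.30, and the vector arrays 1.81 and 1.62. Both ratios were lowest on the 2 BCR/ABL arrays. Such a ratio reads RNA integrity where labelling starts at the 3-prime end, whereas the labels describe random primers, and its part in the results was not tested. Pgk1, the first ATP-yielding enzyme, had 7394 and 7116 with imatinib, 7747 and 8137 in BCR/ABL, and 7581 and 7768 in vector. Its BCR/ABL arrays were the highest after quantile normalization but not in these signals. The log2 change was 0.11 against vector (SE 0.06, adjusted p = 0.557). Pkm, pyruvate kinase, had 6891 and 5732 with imatinib, 7203 and 7661 in BCR/ABL, and 5688 and 6697 in vector. Pgam1, phosphoglycerate mutase, overlapped in every comparison, with signals between 5735 and 7808.

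Eno2 encodes gamma enolase, best known from neurons. Its signals were 234 and 160 in BCR/ABL imatinib cells, 22.4 and 32.3 in BCR/ABL cells, and 15.2 and 15.6 in vector cells. Both imatinib arrays stood far above the other 4, which lay at or below 32.3, and the vector arrays lay under the added constant of 16. The log2 change was 2.02 with imatinib against BCR/ABL (SE 0.39, adjusted p = 0.123) and 2.62 against vector (SE 0.39, adjusted p = 0.124). Such dim values make the size depend on that constant. With array medians both differences passed (adjusted p = 0.0381 and 0.0213), where 3.34% and 0.767% of probe sets did, and over all alternatives the adjusted p ranged from 0.0381 to 0.564 and from 0.0213 to 0.387. The gene has 1 probe set with a single symbol, so no second reading was at hand.

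Slc16a3, a lactate gene, had the largest difference of any member between BCR/ABL and vector cells. It encodes MCT4, the carrier that exports lactate from glycolytic cells. Its signals were 586 and 311 in BCR/ABL imatinib cells, 908 and 952 in BCR/ABL cells, and 131 and 158 in vector cells. The 3 groups did not overlap, with imatinib between the others. The log2 level was 8.72 ± 0.71 with imatinib, 9.88 ± 0.04 in BCR/ABL and 7.29 ± 0.30 in vector (SD, n = 2 each). BCR/ABL exceeded vector by 2.59 on the log2 scale (SE 0.37, adjusted p = 0.119). Imatinib differed from BCR/ABL by -1.15 (SE 0.37, adjusted p = 0.246) and from vector by 1.43 (SE 0.37, adjusted p = 0.222). Among probe sets above the 50th percentile of signal, and with array medians, the first difference passed (adjusted p = 0.0282 and 0.00364), and over all alternatives its adjusted p ranged from 0.00364 to 0.713. With each array left out in turn it lay between 2.40 and 2.79. The 2 imatinib arrays differed: imatinib minus BCR/ABL was -1.65 without BCR/ABL imatinib replicate 1 and -0.66 without replicate 2, and imatinib minus vector was 0.93 and 1.96.

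Ldha, which reduces pyruvate to lactate, had signals of 8559 and 7314 with imatinib, 9702 and 11232 in BCR/ABL, and 8467 and 8723 in vector. The BCR/ABL arrays were the highest, by a log2 change of 0.37 over vector (SE 0.11, adjusted p = 0.329), and imatinib stood at -0.41 against BCR/ABL (adjusted p = 0.178), or -0.27 without BCR/ABL imatinib replicate 2. Ldhb, the isoform that favours the making of pyruvate, was dim and uneven, with 173 and 399 with imatinib, 180 and 184 in BCR/ABL, and 328 and 237 in vector. After quantile normalization it was the single member whose BCR/ABL arrays both lay below vector. Its log2 change was -0.47 (SE 0.40, adjusted p = 0.694), or -0.31 without vector replicate 1. With the deposited scaling Pdk2 lay below vector as well. Slc16a1 encodes MCT1, a carrier of lactate and pyruvate in both directions. It ran differently from Slc16a3: its signals were 4304 and 3813 with imatinib, 5653 and 5323 in BCR/ABL, and 6124 and 5533 in vector. Both imatinib arrays were below the other 4, by a log2 change of -0.39 against BCR/ABL (SE 0.10, adjusted p = 0.169) and -0.46 against vector (SE 0.10, adjusted p = 0.174).

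**Figure D4:**
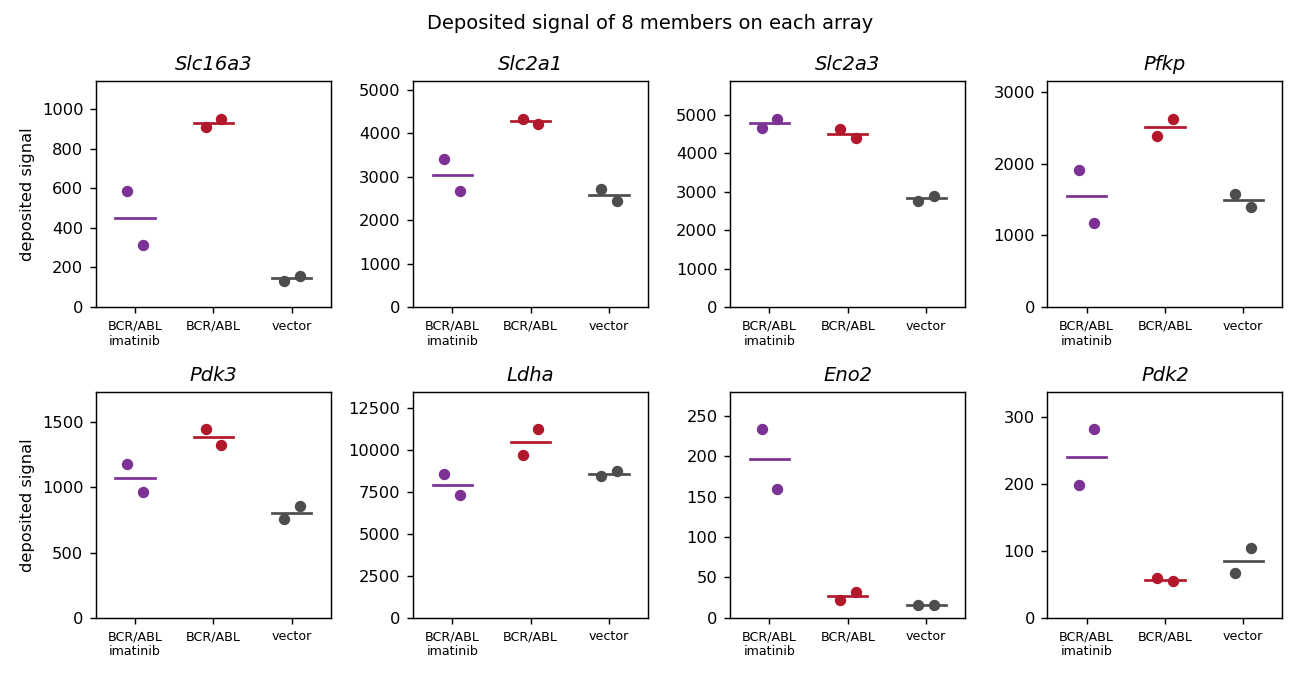
Deposited signal (vertical axis, linear, from 0) of 8 members on each of 6 arrays; points are arrays and lines the mean of the 2 arrays of a group. Slc16a3, Slc2a1, Pfkp, Pdk3 and Ldha are highest on the BCR/ABL arrays, Slc2a3 is high with and without imatinib, and Eno2 and Pdk2 are highest with imatinib.

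Of the pyruvate dehydrogenase kinases, which inhibit the complex by phosphorylation, each had its own order. Pdk3 had signals of 1182 and 963 with imatinib, 1445 and 1326 in BCR/ABL, and 754 and 857 in vector. The groups did not overlap, and the log2 change was 0.73 in BCR/ABL against vector (SE 0.16, adjusted p = 0.262) and -0.36 with imatinib against BCR/ABL (adjusted p = 0.391), the last being -0.21 without BCR/ABL imatinib replicate 2. Pdk2 had signals of 199 and 281 with imatinib, 59.6 and 54.3 in BCR/ABL, and 66.6 and 104 in vector. The imatinib arrays stood above the other 4, and the log2 change was 1.54 against BCR/ABL (SE 0.41, adjusted p = 0.184) and 1.31 against vector (SE 0.41, adjusted p = 0.275). Pdk1 ranged from 3745 to 5244, and its imatinib arrays lay just above both vector arrays. In deposited signals replicate 2 stood at 4579 with imatinib and 4575 in vector. The log2 change was 0.29 (SE 0.13, adjusted p = 0.405), or 0.16 without vector replicate 1, and 3 of its 4 probe sets had this sign.

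Of the complex itself, Pdha1 and Pdhb encode the subunits of the first enzyme, with signals of 3832 to 4609 and 2785 to 3967 over the 6 arrays. Imatinib arrays of Pdhb, at 3119 and 2891, lay below its BCR/ABL arrays, at 3255 and 3967. That log2 change was -0.22 (SE 0.16, adjusted p = 0.610), and lay between -0.37 and -0.07 with each array left out in turn. Dlat, the acetyltransferase core, had 789 and 647 with imatinib, 919 and 1186 in BCR/ABL, and 980 and 965 in vector. Its imatinib arrays were the lowest, with log2 changes of -0.57 against BCR/ABL (SE 0.20, adjusted p = 0.268) and -0.49 against vector (SE 0.20, adjusted p = 0.352), and all 3 probe sets had these signs.

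Of the pentose phosphate genes, Pgd, the second NADPH-yielding enzyme, ranged from 4024 to 5394, Tkt, transketolase, from 6612 to 7599, and Taldo1, transaldolase, from 3771 to 5195. The highest value of each was on BCR/ABL replicate 2. Their log2 changes in BCR/ABL against vector lay between 0.01 and 0.25, and Taldo1 was the 1 whose groups did not overlap there, at 0.25, or 0.13 without BCR/ABL replicate 2. After quantile normalization the imatinib arrays overlapped with the BCR/ABL arrays for all 3. In deposited signals those of Tkt did not, at 6713 and 6612 with imatinib and 6732 and 7599 in BCR/ABL. The imatinib arrays lay below both vector arrays for Pgd and Tkt, by log2 changes of -0.09 and -0.06 (adjusted p = 0.797 and 0.783). That of Pgd was -0.041 without BCR/ABL imatinib replicate 1 and -0.06 without vector replicate 1, that of Tkt was -0.033 without vector replicate 2, and it was 0.15 with its 3 probe sets averaged.

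Promoters are shown for the members with the largest changes, Slc16a3, Pdk2 and Eno2, and for Ldha, which has the most matches to the motifs searched. The motifs were CACGTG, the E-box bound by MYC and its partner MAX, and ACGTG and GCGTG, the core letters bound by hypoxia-inducible factor, on both strands. CACGTG contains ACGTG on each strand and is counted under both. Each sequence is the 250 bases before the RefSeq start in GRCm38.p6, read 5′ to 3′ on the gene's strand, with matches in capitals. Slc16a3 lies at chr11:120948817-120949066 (+), Ldha at chr7:46845554-46845803 (+), Pdk2 at chr11:95041372-95041621 (-) and Eno2 at chr6:124769674-124769923 (-).
Slc16a3: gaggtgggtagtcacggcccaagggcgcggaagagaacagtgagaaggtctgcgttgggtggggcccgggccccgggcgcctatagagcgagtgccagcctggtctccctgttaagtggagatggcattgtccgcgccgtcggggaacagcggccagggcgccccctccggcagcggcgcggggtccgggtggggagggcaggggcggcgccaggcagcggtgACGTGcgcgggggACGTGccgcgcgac
Ldha: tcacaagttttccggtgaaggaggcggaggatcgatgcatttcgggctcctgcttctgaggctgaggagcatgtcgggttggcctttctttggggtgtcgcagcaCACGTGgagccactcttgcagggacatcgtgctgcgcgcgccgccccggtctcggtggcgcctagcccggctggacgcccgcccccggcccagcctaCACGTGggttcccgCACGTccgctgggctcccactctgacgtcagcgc
Pdk2: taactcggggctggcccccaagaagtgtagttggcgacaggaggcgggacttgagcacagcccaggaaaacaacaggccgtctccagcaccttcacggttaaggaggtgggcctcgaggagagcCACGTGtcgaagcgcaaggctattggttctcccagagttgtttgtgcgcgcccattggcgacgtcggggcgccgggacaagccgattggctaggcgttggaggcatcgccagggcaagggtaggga
Eno2: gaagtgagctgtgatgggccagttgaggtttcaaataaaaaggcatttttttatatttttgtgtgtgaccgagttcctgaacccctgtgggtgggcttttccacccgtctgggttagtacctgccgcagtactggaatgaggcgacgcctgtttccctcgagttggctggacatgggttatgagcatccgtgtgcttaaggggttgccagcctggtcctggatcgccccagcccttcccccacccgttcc
The Slc16a3 window holds 2 copies of ACGTG, which begin 27 and 14 bases before the start. The Ldha window holds 2 copies of CACGTG, 145 and 48 bases before it, and a further ACGTG on the opposite strand. Pdk2 has 1 CACGTG, 126 bases before the start, and these letters are not in the Eno2 window. Of 33 member promoters in the table, 4 held CACGTG, or 12.1%, where 6.05% of 27025 promoters of the same length did. ACGTG or GCGTG stood in 26 of 33, or 78.8%, where 38.6% of all promoters held one. Member promoters were richer in G and C, with medians of 61.2% and 15 CG dinucleotides, where all promoters had 52% and 6. All 3 motifs contain CG, and the part of base composition in these shares was not tested. A match is a description of letters and not a binding site. Of the genes for the factors named, Hif1a and Myc are given here, and that of MAX is not. Hif1a had signals of 5249 and 4649 with imatinib, 5096 and 5486 in BCR/ABL, and 4193 and 4278 in vector. Myc had 2144 and 2219, 2557 and 2362, and 2221 and 2298 in the same groups. Their part in the members' values was not tested.

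Neighbouring steps of the pathway were read from 5 further lists, of which 82 of 87 genes were measured, and 0 passed limma in any comparison. With array medians Tigar and Suclg1 passed in imatinib against BCR/ABL (adjusted p = 0.0373 and 0.0397), where 3.34% of all probe sets did. At an unadjusted p under 0.05, in BCR/ABL against vector, 2 of 24 other glycolysis and gluconeogenesis genes were higher and 0 lower, where 7.16% and 5.55% of all genes were, with a median of 0.09. Of 11 other pyruvate entry genes, 10 had a positive log2 change in BCR/ABL against vector, where 52.4% of all genes did, with a median of 0.46. With imatinib against BCR/ABL 9 had a negative one, where 51% of all genes did, with a median of -0.49. Me1, malic enzyme, a source of NADPH, had signals of 52.8 and 59.9 with imatinib, 82.6 and 102 in BCR/ABL, and 14.4 and 16.6 in vector. Both BCR/ABL arrays were the highest, and the vector arrays lay at the level of the added constant, so no size is given. Pcx, pyruvate carboxylase, had 66.9 and 64.4, 176 and 113, and 36.0 and 43.6 in the same groups. Pdk4, a further kinase of the complex, was uneven with imatinib, at 37.5 and 321, against 70.5 and 46.1 in BCR/ABL and 0.222 and 8.49 in vector.

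Tricarboxylic acid cycle genes, which burn the acetyl group made from pyruvate, lay close to vector in untreated BCR/ABL cells, with a median log2 change of 0.04 over 16 genes. With imatinib 15 of 16 had a negative change against BCR/ABL, where 51% of all genes did, with a median of -0.21. The groups did not overlap for 11 that were lower, where 26.7% of all genes and 31.6% of the brighter genes did so. In imatinib against vector 14 of 16 had a negative change, where 50.2% of all genes did, with a median of -0.14. There 8 were lower without overlap, where 22.3% of all genes and 25.5% of the brighter genes were. Idh3a, a catalytic subunit of isocitrate dehydrogenase, had signals of 2482 and 1482 with imatinib, 3079 and 3197 in BCR/ABL, and 2888 and 2824 in vector. Suclg1 and Dlst, of the succinyl-CoA steps, had log2 changes of -0.48 and -0.38 with imatinib against BCR/ABL (adjusted p = 0.213 and 0.249).

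Among other pentose phosphate genes, Tigar, which lowers fructose 2,6-bisphosphate, had signals of 503 and 414 with imatinib, 748 and 922 in BCR/ABL, and 1035 and 763 in vector. Its imatinib arrays were the lowest, with a log2 change of -0.90 against BCR/ABL (adjusted p = 0.178). Shpk, sedoheptulokinase, had 106 and 114, 45.0 and 62.4, and 22.7 and 31.8 in the same groups, and Tktl1, a relative of transketolase, was below 60 everywhere. Of the other glycolysis genes, Ldhc, the testis-type lactate dehydrogenase, had 200 and 200 with imatinib, 80.0 and 102 in BCR/ABL, and 60.4 and 69.3 in vector. Slc2a9, a transporter of urate, and Pfkfb2, an isoform of the enzyme that makes fructose 2,6-bisphosphate, had log2 changes of 0.76 and 1.26 with imatinib against BCR/ABL (adjusted p = 0.448 and 0.332).

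The 20 regulators that sense glucose and oxygen had medians of 0.02 in BCR/ABL against vector and -0.03 with imatinib against BCR/ABL. In imatinib against vector the median was 0.14, with 16 of 20 positive, where 49.8% of genes were. They included Txnip and its relative Arrdc4. Txnip encodes an arrestin-like protein that takes glucose transporters off the cell surface. Its signals were 7116 and 7617 with imatinib, 4547 and 3596 in BCR/ABL, and 4090 and 4636 in vector, and both imatinib arrays lay above the other 4. The log2 change was 0.90 against BCR/ABL (adjusted p = 0.108) and 0.79 against vector (adjusted p = 0.138). Among probe sets above the 50th percentile of signal both differences of Txnip passed (adjusted p = 0.0383 and 0.0368), and over all alternatives the adjusted p ranged from 0.0383 to 0.520 and from 0.0368 to 0.387. Arrdc4 had 1185 and 1346 with imatinib, 739 and 504 in BCR/ABL, and 610 and 496 in vector, with a log2 change of 1.02 against BCR/ABL (adjusted p = 0.146). Ppargc1b, a coactivator of mitochondrial genes, had 172 and 143, 190 and 214, and 91.0 and 157 in the same groups.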

How the data were processed

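Transcript levels of 6 samples were measured on arrays. The deposited values are linear intensity values that the authors made with Affymetrix Expression Console and MAS5, per the submitters' processing notes; their versions and a genome build do not appear in those sources. Their probe set identifiers belong to the Mouse Genome 430 2.0 array, although the design text names another array and a random-primer labelling. The table held 45101 probe sets; 64 controls were left out, 34945 had 1 symbol, 932 several and 9160 none. All 35877 with a symbol were tested without a filter.

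Values were transformed as log2(value + 16), quantile normalized, and fitted with limma 3.58.1 in R 4.3.3 (lmFit, eBayes with trend) in 1 model of all 6 arrays, with 3 residual and 2.97 prior degrees of freedom. Tests were two-sided, with Benjamini-Hochberg adjustment over all probe sets and 0.05 as the threshold. The fit was tested on simulated data. No member was chosen by its value, but the members and lists were chosen with earlier results of these data known. Members past the threshold, then up to 8 with the largest change among those whose groups did not overlap, were to be given in full; others were added after their values were seen. Of other lists, the 3 genes with the largest change in any comparison are named, and Hif1a and Myc for their motifs. Detection calls were not used, and 2 arrays a group limit the precision. Promoters came from RefSeq, 1 per gene; Slc2a3 had no entry. Alternatives were array medians, the deposited scaling, an added constant of 1, a filter at the 50th percentile, no variance trend, a replicate block, averaged probe sets and leaving out each array.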

Additional observations from a re-analysis of the deposited data

How the results depend on the processing

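No member passed the threshold in any of the 3 comparisons with quantile normalization of all probe sets. With array medians, 2 members passed in BCR/ABL against vector (Slc2a3 and Slc16a3), 7 in BCR/ABL imatinib against BCR/ABL (Slc2a1, Pfkl, Pfkp, Tpi1, Eno2, Ldha and Slc16a1) and 1 in BCR/ABL imatinib against vector (Eno2), where 0.831%, 3.34% and 0.767% of probe sets did. The members' medians were then 0.44, -0.46 and -0.13, where the median over all probe sets was 0.20, -0.27 and -0.09. Among probe sets above the 50th percentile 2, 0 and 1 members passed (Slc2a3 and Slc16a3, then Slc2a3), where 0.786%, 1.11% and 1.03% of those probe sets did, and with an added constant of 1 the third comparison had 1 (Slc2a3; 0.217% of probe sets). Changes of sign among members whose groups did not overlap were those of Slc2a3 in imatinib against BCR/ABL (-0.25 with array medians, -0.049 with probe sets averaged) and, in imatinib against vector, of Aldoa (-0.028 with array medians) and Tkt (0.15 with probe sets averaged). The cause of these shifts was not tested. Members lower with imatinib than in BCR/ABL with no overlap numbered 24 with array medians (49.9% of all genes). Those lower in BCR/ABL than in vector numbered 2 with the deposited scaling, Ldhb and Pdk2 (22.9%). Those highest on both BCR/ABL arrays, a count added after seeing the data, numbered 19 with array medians (30%). With each array left out in turn 1 group held only 1 array, so members past the threshold are not counted there. The medians then ranged from 0.11 (without vector replicate 1) to 0.29, from -0.18 to -0.08, and from -0.0203 to 0.13 (without vector replicate 2). Members without overlap then numbered 15 to 21 higher and 1 to 5 lower in BCR/ABL against vector (23.9% to 42.9% and 20.1% to 36.7% of all genes), 4 to 8 and 14 to 19 in imatinib against BCR/ABL (24.8% to 38.7% and 26.7% to 41.1%), and 9 to 17 and 6 to 13 in imatinib against vector (21.9% to 39.4% and 22.3% to 37.4%), since 1 array in a group leaves less to overlap. Those highest on both BCR/ABL arrays numbered 11 to 18 (14.4% to 21.9% of all genes). Counts that moved by over 1.5 times, each with the share of all genes, were in BCR/ABL against vector 4 and 5 lower without BCR/ABL replicate 1 and 2 (31.6% and 30.8%) and 4 and 2 without vector replicate 1 and 2 (36.7% and 36.5%); in imatinib against BCR/ABL 8 higher without imatinib replicate 1 (37.3%) and 7 without BCR/ABL replicate 1 (37.2%); in imatinib against vector 14 and 17 higher without imatinib or vector replicate 2 (35.2% and 39.4%) and 10 and 13 lower without imatinib or vector replicate 1 (35.4% and 37.1%); and 18 highest without BCR/ABL replicate 1 (21.4%). With the replicate block the medians stayed at 0.22, -0.12 and 0.02 and 0 members passed, with smallest adjusted p of 0.153, 0.150 and 0.135. In the labels same-numbered arrays share only a number, and whether they were paired is not stated. Their deviations correlated at 0.16 between imatinib and BCR/ABL, 0.12 between imatinib and vector, and -0.12 between BCR/ABL and vector. With 2 arrays a group these values cannot decide it. Signals near 16 or below carry little information on differences, which limits Eno2 in BCR/ABL and vector cells and, among other genes, Me1 and Pdk4 in vector cells and Tktl1.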
